A study of Bombyx mori with 6 samples.

Results

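Osiris transcripts were followed in testes of the silkworm Bombyx mori through 5 genes, Osi7, Osi9, Osi18, Osi19 and Osi20, of 15884 genes in the deposited count table. The genes were selected on the difference in their read counts between strains, so their GMS and WT values are given as a description, with no test. The only other gene of the table with an Osi symbol, Osi21, was not among those picked. Testes came from day 5 of the fifth larval instar. The wild-type group was strain 898WB (WT) and the mutant group was the genetic male sterile line (GMS), with 3 biological replicate libraries each. The labels name neither the mutated gene nor whether a library came from 1 animal or a pool, so p-values cover the spread between these libraries.

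Osiris genes form an insect-specific family of small proteins with a signal peptide and a membrane-spanning stretch. In Drosophila most of them sit together in a conserved cluster and are switched on in epithelia that secrete cuticle, including the epidermis and the tracheal tubes, where the proteins have been found on endosomes and other vesicles. Drosophila Osi9 and Osi19 take part in maturation of the tracheal tubes. Drosophila Osi21 lies apart from the main cluster and has been studied in photoreceptor degeneration. The testis is not a tissue in which the family is usually described.

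The libraries held 19627477 to 28358501 counted reads, so 3 reads amounted to 0.106 to 0.153 of the library-scaled unit CPM before further scaling. Testis identity was checked with 9 germ cell genes, whose summed level was 32295 to 36936 CPM in WT and 26569 to 27251 CPM in GMS. WT replicate 3 stood apart, with a correlation of 0.982 to 0.985 to the other WT libraries over log2 CPM, against 0.995 for every other pair within a strain. Of 12029 genes tested, 36.2% differed between strains, 17.6% higher and 18.6% lower in GMS (edgeR quasi-likelihood test, adjusted p under 0.05).

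Osi19 was the most abundant Osiris transcript of GMS testis. Its 3 WT libraries held 9, 12 and 6 reads, and its 3 GMS libraries 1520, 1826 and 1927. Scaled to gene length and library size (RPKM), the level was 0.124, 0.185 and 0.103 in WT and 29.1, 28.7 and 25.9 in GMS. The GMS libraries lay close together and far above every WT library. The ratio of summed reads, GMS over WT, each sum divided by the TMM-scaled library sizes of its strain as for every such ratio here, was 193, with a counting interval of 133 to 294, and the fitted log2 difference was 7.59 ± 0.15 (SE).

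Osi20 stands directly beside Osi19 in the gene order of the RefSeq assembly. It had 6, 7 and 3 reads in WT and 362, 476 and 505 in GMS. Its level went from 0.0834, 0.108 and 0.0518 RPKM to 6.98, 7.54 and 6.84 RPKM, with no overlap between strains. The ratio of summed reads was 83.1 (interval 51.0 to 146) and the log2 difference 6.35 ± 0.18 (SE).

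Osi9 was near the floor in WT, with 2, 7 and 2 reads. Reads in WT replicates 1 and 3 were under the floor of 3 counts, so their order among the WT libraries carries little weight. The GMS libraries held 572, 717 and 786 reads, or 8.74, 9.002 and 8.43 RPKM. The ratio was 187, with a counting interval of 104 to 375, and the log2 difference was 7.50 ± 0.25 (SE). Without WT replicate 2, which held 7 of the 11 WT reads, the log2 difference was 8.33.

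Osi18 was detected in every WT library, with 21, 28 and 15 reads, and held 331, 454 and 514 reads in the GMS libraries. The levels were 0.316, 0.469 and 0.280 RPKM in WT and 6.89, 7.77 and 7.52 RPKM in GMS. The lowest GMS library was 14.2-fold above the highest WT library in CPM. The log2 difference was 4.32 ± 0.17 (SE).

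Osi7 was the Osiris gene with a clear level in the wild-type testis. It had 136, 79 and 87 reads in WT and 305, 380 and 383 in GMS, or 1.96, 1.27 and 1.56 RPKM against 6.11, 6.25 and 5.39 RPKM. The lowest GMS library stood 2.64-fold above the highest WT library in CPM, the narrowest gap of the 5 genes. Its ratio of summed reads was 3.50 (interval 3.08 to 3.99) and its log2 difference 1.82 ± 0.16 (SE).

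For all 5 genes every GMS library was above every WT library. The same held for 26.2% of all genes tested, and since the genes were picked for this difference nothing is read from the count. All 5 also passed the filter on low counts, as did 12029 of 15884 genes. Since a gene could pass through the strain where it was high, nothing is read from that either. In whole testis, more expressing cells and more RNA per cell in GMS cannot be told apart.

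**Figure D1:**
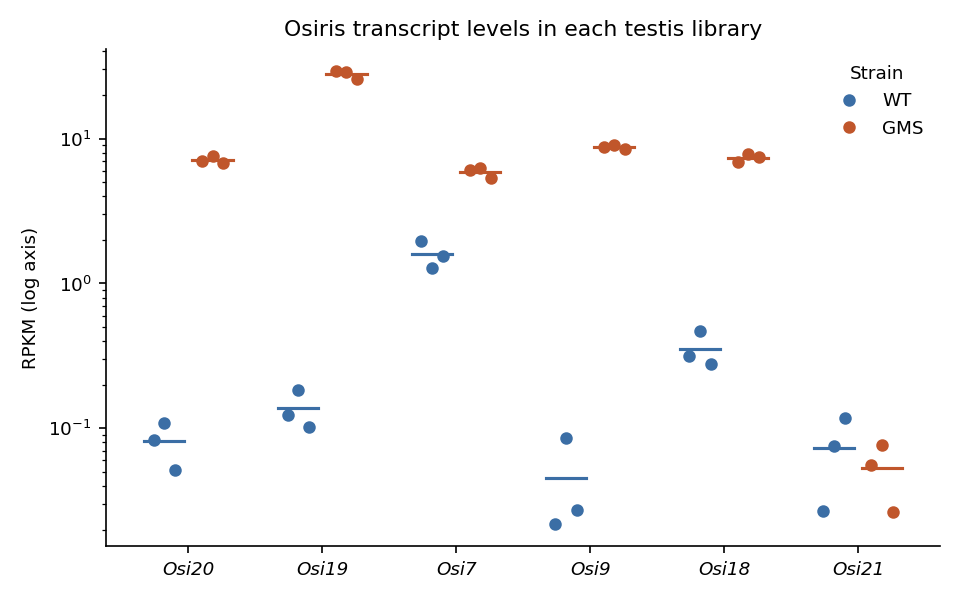
RPKM (log axis) of the 5 Osiris genes and of Osi21 in each testis library, with points for libraries and bars for the mean of 3. GMS points lie above WT points for the 5 genes, from 5.39 RPKM for the lowest Osi7 library upward, while the Osi21 points of both strains overlap at 0.117 RPKM and below.

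Osi21 gives the comparison with a family member that was not picked. It had 2, 5 and 7 reads in WT and 3, 5 and 2 in GMS, near the floor of a single library. The groups overlapped, at 0.0731 ± 0.0451 RPKM in WT and 0.0530 ± 0.0254 RPKM in GMS (SD, n = 3). Over each strain the sums were 14 and 10 reads, a library-scaled ratio of 0.707 with a counting interval of 0.281 to 1.71. It fell below the filter, and in the edgeR fit without a filter its log2 difference was -0.49 ± 0.69 (SE, adjusted p = 0.630). That interval does not reach the ratio of 3.50 of Osi7, a gene picked for its rise. It holds counting error only and does not cover the spread between libraries. Whether reads were divided between related family members was not tested.

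The order of levels per gene length changed between strains. In WT the order was Osi7, Osi18, Osi19, Osi20 and Osi9, with means of 1.598, 0.355, 0.137, 0.0812 and 0.0451 RPKM. Libraries of Osi19 and Osi20 overlapped, as did those of Osi20 and Osi9. In each of these pairs the gene with the higher mean was still above in 3 of 3 libraries. Osi20 held 6, 7 and 3 WT reads and Osi9 held 2, 7 and 2, so the order of these genes carries little weight. In GMS the order was Osi19, Osi9, Osi18, Osi20 and Osi7, with means of 27.9, 8.72, 7.40, 7.12 and 5.92 RPKM. Osi18 and Osi20 overlapped there, with Osi18 above in 2 of 3 libraries, and the other neighbours in the order did not overlap. Osi7 therefore stood at the top in WT and at the bottom in GMS.

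Summed over the 5 genes, the level was 2.22 ± 0.259 RPKM in WT and 57.1 ± 2.69 RPKM in GMS (SD, n = 3). Osi7 made up 71.8 ± 10.2% of that sum in WT and 10.4 ± 0.344% in GMS. Osi19 made up 6.25 ± 2.13% in WT and 48.9 ± 1.27% in GMS. The share of Osi18 differed least between strains among these genes, at 16.2 ± 5.19% and 13.0 ± 0.995%. In the order of RPKM over all 15884 genes, Osi19 moved from place 11792 in WT to place 1580 in GMS, and Osi7 from 8121 to 5254.

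**Figure D2:**
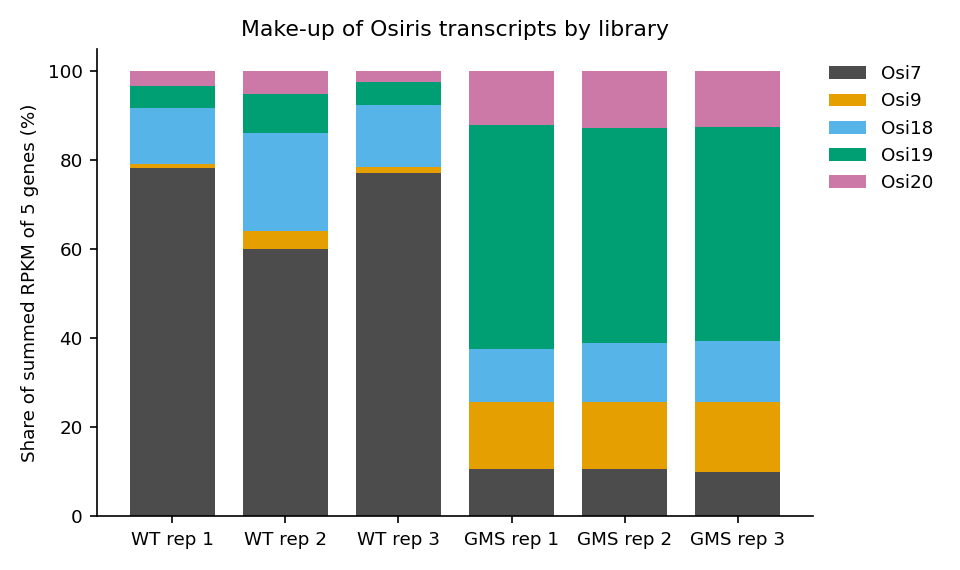
Share of each gene in the summed RPKM of the 5 Osiris genes (%), stacked for each library. Osi7 fills 60.0 to 78.3% of the WT bars, and Osi19 fills 47.9 to 50.3% of the GMS bars.

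Proportions between the genes varied less among the GMS libraries than among the WT libraries for 9 of 10 pairs. For Osi9, Osi18, Osi19 and Osi20 a WT library held 2 to 28 reads, against 331 to 1927 in a GMS library. The part of counting error in the wider WT spread was not tested. The highest over the lowest RPKM ratio of a pair was 1.05 to 1.24 within GMS and 1.07 to 6.03 within WT. The ratio of Osi19 to Osi9 in RPKM was 3.33, 3.19 and 3.07 in GMS replicates 1, 2 and 3, and that of Osi9 to Osi20 was 1.25, 1.19 and 1.23. The widest GMS pair was Osi7 to Osi18, at 0.886, 0.805 and 0.716, followed by Osi18 to Osi19. The ratio of Osi7 to Osi19 was 0.210, 0.218 and 0.208 in GMS and 15.8, 6.89 and 15.2 in WT. Osi18 to Osi19 was the exception, at 2.54, 2.54 and 2.72 in WT against 0.237, 0.271 and 0.290 in GMS. WT replicate 2 was the highest WT library for Osi9, Osi18, Osi19 and Osi20 and the lowest for Osi7. The coefficient of variation of RPKM was 3.27 to 7.86% over the GMS libraries and 21.8 to 78.6% over the WT libraries.

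All 5 genes lie on chromosome 26 of the RefSeq assembly, in 2 separate stretches, and Osi21 lies on chromosome 4. Osi20 and Osi19 are adjacent, with no gene between them. Osi7, Osi9 and Osi18 span a stretch that holds 18 other genes, 15 of them in the count table. A total of 212 genes separate the stretches.

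Between Osi7 and Osi9, 2 genes with no name in the table were called higher in GMS, as were 17.6% of all genes tested. Of the 5 genes placed there only these 2 were tested. Both passed the filter on low counts through the GMS libraries alone, so nothing is read from their number. LOC101740726, the gene next to Osi7, had 2, 0 and 0 reads in WT and 801, 1061 and 1246 in GMS, a ratio of 1538 with a counting interval of 425 to 12706 (edgeR adjusted p = 8.48e-07). LOC101741384, the gene next to Osi9, had 2, 0 and 0 reads in WT and 459, 618 and 704 in GMS, a ratio of 881 with an interval of 244 to 7283 (edgeR adjusted p = 1.44e-06). All 3 GMS libraries exceeded all WT libraries for each gene. In GMS their levels were 13.4 ± 0.663 and 6.94 ± 0.361 RPKM (SD, n = 3), against 5.92 RPKM for Osi7 and 8.72 RPKM for Osi9. Both were called higher under all 13 alternatives. Their WT reads came from replicate 1 alone, and without it the log2 difference moved from 10.34 to 12.97 for LOC101740726 and from 9.53 to 12.17 for LOC101741384. The tables used here hold no product names, so neither is given a role.

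The other genes of this stretch were nearly silent or were not called higher. Of the 3 genes that lie between LOC101740726 and LOC101741384, LOC101740865 had 0 reads in all 6 libraries, LOC101741004 had 0 in WT and 2 in GMS, and LOC101741151 had 2 and 17. Between Osi9 and Osi18, 10 genes were in the count table and 6 of them had at most 10 reads over all libraries. Of the 2 tested there, LOC101742205 averaged 12.6 CPM in WT and 13.6 CPM in the mutant (log2 difference 0.11, edgeR adjusted p = 0.365). LOC101744363 fell from 1.56 ± 0.220 to 0.757 ± 0.308 CPM (SD, n = 3; edgeR adjusted p = 0.0268). That call was lost with either WT replicate 1 or 2 or either GMS replicate 1 or 3 left out (edgeR adjusted p = 0.0567 to 0.104) and with a replicate block (edgeR adjusted p = 0.0611).

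Outside the stretches the nearest genes did not pass the test. Of the 3 genes on either side of each stretch, 9 were in the count table and 6 were tested, with 0 called over all 6 libraries by edgeR or DESeq2 and 1 at an unadjusted edgeR p under 0.05. LOC101741989, next to Osi20, averaged 37.3 CPM in WT and 43.0 CPM in the mutant (edgeR adjusted p = 0.0657), and LOC101742342, next to Osi18, averaged 35.5 and 33.6 CPM (edgeR adjusted p = 0.504). LOC101741989 was called higher with library totals in place of TMM factors (edgeR adjusted p = 0.0178) and by limma on RPKM with a pseudocount of 0.1 (adjusted p = 0.0456). Tal-like, beyond Osi19, stood at 4.34 ± 1.99 and 5.87 ± 0.0719 CPM (edgeR adjusted p = 0.247). Without WT replicate 3, where it was highest, Tal-like passed, with a log2 difference of 0.83 (edgeR adjusted p = 0.000152), as did LOC101741692 (0.29, adjusted p = 0.00851), LOC101741989 (0.20, adjusted p = 0.0175) and LOC101742342 (-0.21, adjusted p = 0.00983). In that setting 7104 of 12250 genes tested were called, so nothing is read from the number of flanking genes that passed. With all 6 libraries, 28 of 124 tested genes between Osi19 and Osi7 were higher and 27 lower. That was 44.4% in all, against 36.2% over all genes.

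**Figure D3:**
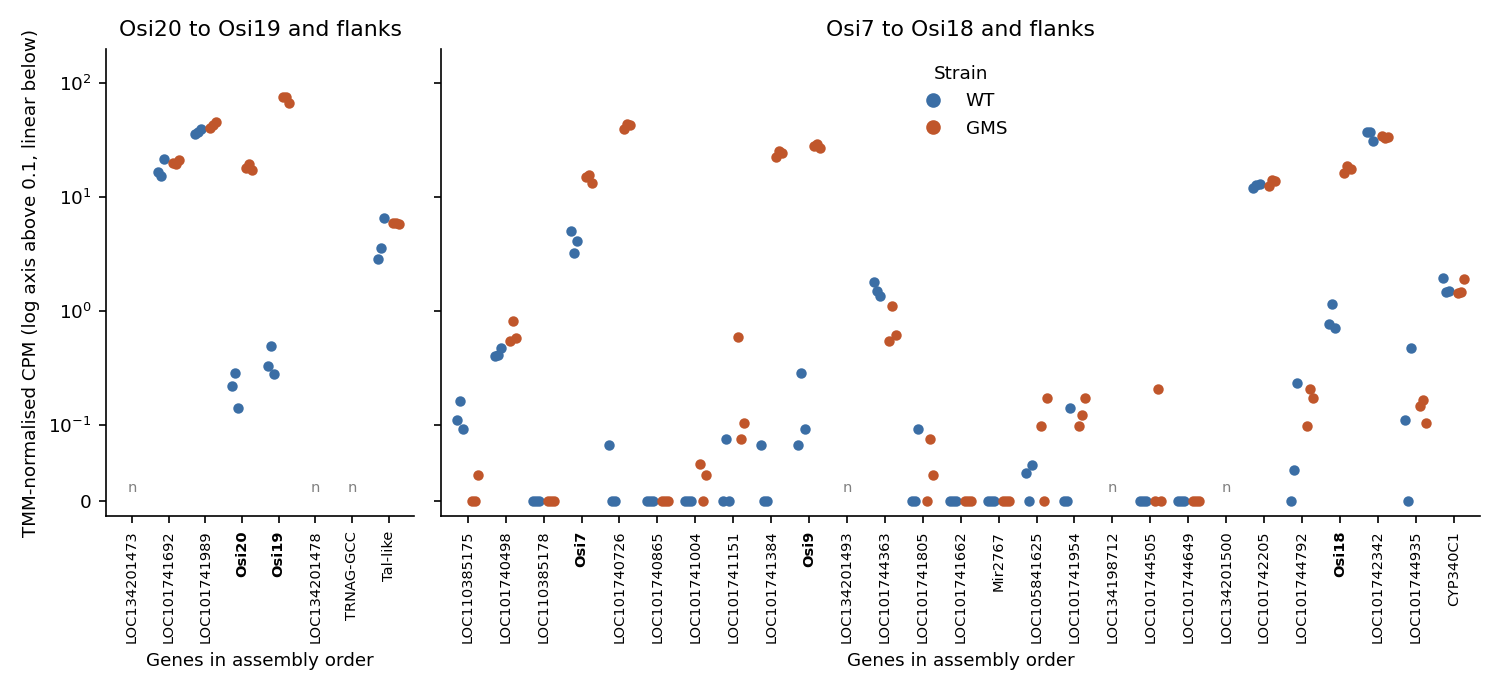
TMM-normalised CPM in each library (log axis above 0.1, linear below) for the genes of both Osiris stretches and 3 genes on either side, in assembly order at equal spacing; n marks a gene outside the count table. LOC101740726 and LOC101741384 stand beside Osi7 and Osi9 with GMS means of 42.0 and 24.1 CPM and WT means of 0.0245 CPM each.

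**Figure D4:**
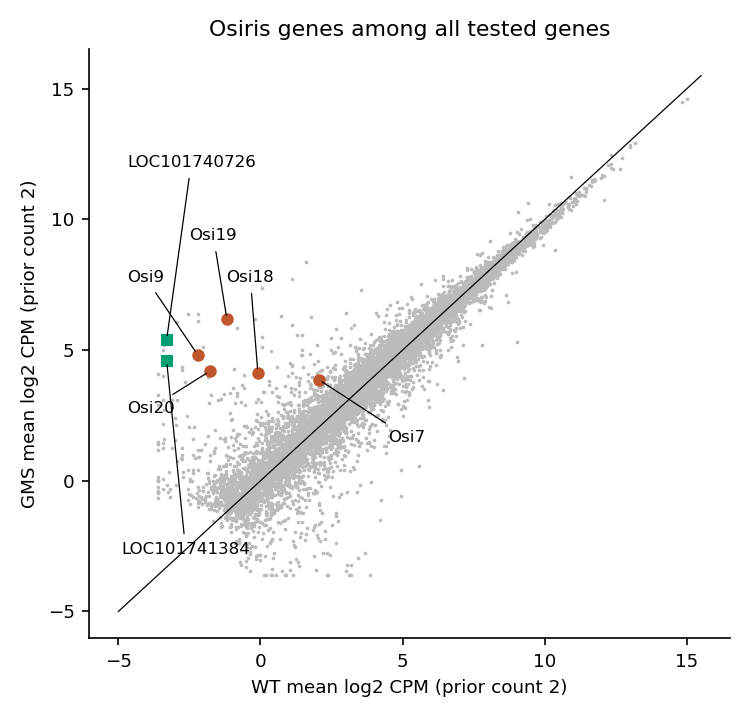
Mean log2 CPM in WT (horizontal) against GMS (vertical) for 12029 tested genes in grey, with the 5 Osiris genes as circles, the 2 unnamed neighbours as squares and a line of equality. The marked genes lie above the line, Osi7 nearest to it at a log2 difference of 1.82.

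Genes with the most similar profile over the 6 libraries were taken by Euclidean distance to the mean centred log2 CPM of the 5 Osiris genes. The 3 with a name were the cuticular protein genes CPH19 (distance 0.413) and CPH20 (0.614) and the antimicrobial peptide gene Attacin1 (0.506). The other 5 of the 8 nearest were GeneID101735485, LOC110384696, GeneID101747139, GeneID110385435 and LOC101737942, at 0.446 to 0.606. The Osiris genes themselves lay at 0.867 for Osi20 to 4.30 for Osi7, and the median of all tested genes was 6.43. CPH19 stood at 0.596 ± 0.0509 RPKM in WT and 22.6 ± 1.99 RPKM in GMS (SD, n = 3). This likeness rests mainly on the strain difference and is a description.

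Genes that build cuticle moved in both directions. The table held 206 cuticular protein genes, and 75 were tested, of which 27 rose and 22 fell, 65.3% in all against 36.2% over all genes. Their median log2 difference was 0.25, where all genes tested gave 0.05, and 24 were called at least 2-fold higher and 14 at least 2-fold lower. Since a gene could pass the filter through the strain where it was high, nothing is read from that share. CPH21, CPH18, CPH23 and CPH19 had the smallest p, with CPH21 at 0.0934 CPM in the wild type against 83.4 CPM in GMS. The summed level of the family was 1283 to 1510 CPM in WT and 1502 to 1578 CPM in GMS. Chitin synthesis and breakdown, a list of 61 symbols and aliases, had 6 tested genes, of which 1 fell and 0 rose by edgeR, at a median of 0.13. The chitinase-related growth factor gene Idgf went from 466 ± 35.7 to 393 ± 6.81 CPM (SD, n = 3; edgeR adjusted p = 0.0176), a call lost under 8 of 13 alternatives. The chitinase gene Chi stood at a log2 difference of 0.16 and did not pass.

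Tanning and pigment genes, which cross-link and colour cuticle, were mixed. Of 12 tested, 5 rose and 2 fell, 58.3% in all against 36.2% over all genes, at a median of 0.21. Ebony, which couples dopamine to beta-alanine, rose from 0.742 ± 0.158 to 3.40 ± 0.405 CPM (SD, n = 3; edgeR adjusted p = 0.000168). LOC101739336, listed under the synonym black, the gene that in Drosophila supplies beta-alanine, rose from 0.507 ± 0.194 to 3.19 ± 0.546 CPM (edgeR adjusted p = 0.000348). The yellow family gene Y-d fell by 1.90 on the log2 scale. The laccase gene Lac2, the oxidase of cuticle tanning, stood at 2.28 ± 0.579 and 1.87 ± 0.404 CPM and did not pass (edgeR adjusted p = 0.399).

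Genes of tubes and vesicles gave 0 calls over all 6 libraries by edgeR or DESeq2, and 0 at an unadjusted edgeR p under 0.05. Over all genes tested 36.2% were called by edgeR, and those 0 calls rest on few genes, so nothing is read from them. Of the tracheal list, 36 symbols and aliases, 3 genes were matched and tested, at a median of 0.02, and trh, a master regulator of tracheal fate in Drosophila, measured 371 ± 2.73 CPM in WT and 377 ± 3.44 CPM in the mutant line (SD, n = 3; edgeR adjusted p = 0.694). The receptor gene Btl, which guides tracheal branching in Drosophila, stood at 11.0 ± 2.85 and 10.3 ± 0.207 CPM. With library totals in place of TMM factors, trh was called higher (edgeR adjusted p = 0.0280). Of 6 genes matched from the 43 symbols and aliases of the Rab and vesicle list none passed, at a median of 0.02. Rab11 stood at 271 ± 23.5 and 283 ± 9.58 CPM and the clathrin heavy chain gene Chc at 268 ± 8.08 and 265 ± 6.11 CPM. Without WT replicate 3, 1 of the 6 rose and 1 fell, where 7104 of 12250 genes tested were called.

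Markers of other tissues differed in both directions. Shares called were 87.5% for fat body, 100% for haemocytes and 62.5% for germ cells. They were 50% for muscle and gut, 28.6% for nervous tissue and 0% for silk gland, against 36.2% over all genes. Each list had 2 to 8 tested genes, so nothing is read from these shares. Of the fat body list 8 genes were tested, of which 7 fell and 0 rose, at a median of -1.10, and their sum was 385 to 512 CPM in WT and 201 to 216 CPM in GMS. Of 4 haemocyte genes 2 rose and 2 fell (summed level of the list 88.9 to 109 and 121 to 135 CPM), of 4 muscle genes 1 rose and 1 fell (26.4 to 32.0 and 34.1 to 35.9 CPM), and of 2 silk gland genes 0 were called by edgeR or DESeq2 or at an unadjusted edgeR p under 0.05 (12.9 to 14.7 and 14.8 to 17.9 CPM). The silk gene Fib-l was called higher without WT replicate 3 (edgeR adjusted p = 0.0323). Of 6 gut genes 0 rose and 3 fell (15.4 to 18.4 and 12.2 to 13.8 CPM), the call of Amy being lost under 6 of 13 alternatives, and in the nervous tissue list 2 of 7 fell and 0 rose, at a median of 0.12 (87.6 to 89.5 and 79.2 to 85.0 CPM). The call of nAChRa2, a nicotinic acetylcholine receptor gene, was lost under 9 of 13 alternatives. Of 8 germ cell genes tested 3 rose and 2 fell by edgeR, 2 and 3 by DESeq2. Dmc1, the meiotic recombinase gene, was higher by 0.93 on the log2 scale. TSSK was lower, at a log2 difference of -0.29 (edgeR adjusted p = 0.00153). Among these lists no marker was at 0 reads in all libraries. Their part in the Osiris difference was not tested.

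**Figure D5:**
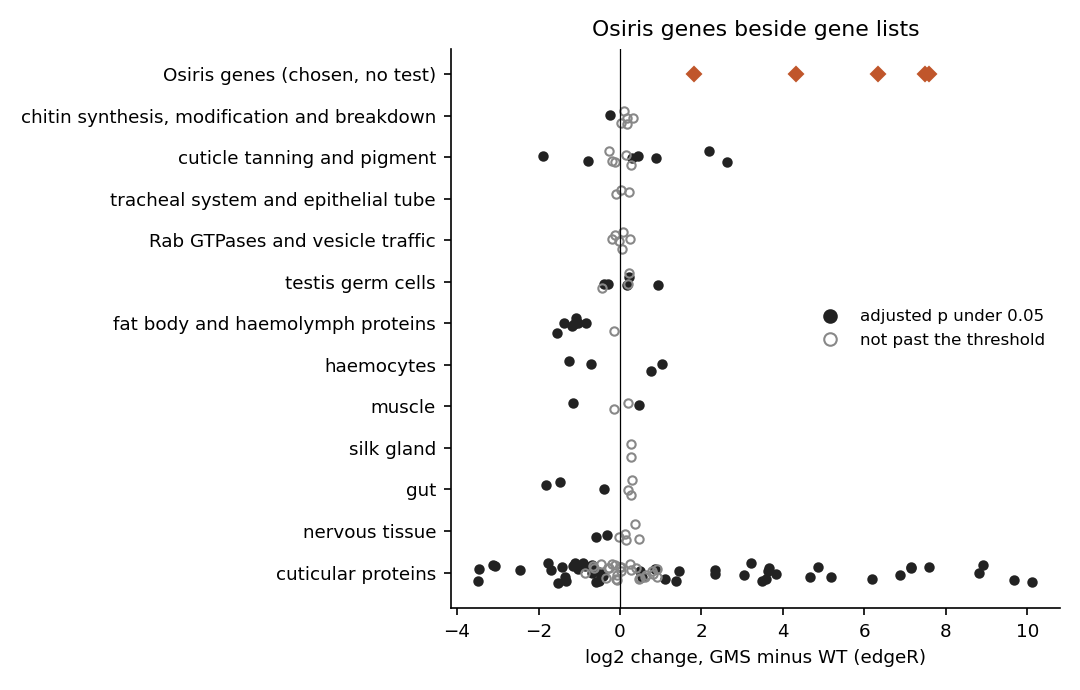
log2 difference, GMS minus WT, of each tested gene in 12 lists, filled where the edgeR adjusted p was under 0.05, with the 5 Osiris genes as diamonds in the top row. Osiris values run from 1.82 to 7.59, while chitin, tracheal and vesicle genes lie near 0 and cuticular protein genes spread to both sides.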

How the data were processed

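Transcripts were measured by RNA sequencing of testis in 3 WT and 3 GMS libraries, grouped by their titles. The submitters' processing notes name HISAT2 2.1.0 and featureCounts 1.6.2. A build or annotation is not given in the sources used. The authors deposited whole-number read counts per gene, and 1 RPKM file per library. Lengths worked back from both were whole within 0.01 bases for 100% of genes with reads. The library sizes behind RPKM, worked back in the same way, were 48248888 to 68701498 reads. Counted reads were 40.1 to 42.5% of these, so RPKM and CPM rest on different library sizes. Symbols and gene order came from the RefSeq gene table of assembly ASM3026992v2, which named 13030 of 15884 genes. Its coordinates are not used, and no sequence is shown.

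Counts were fitted with the quasi-likelihood test of edgeR 4.0.16 in R 4.3.3, with TMM factors, the filterByExpr filter, strain as the only term and Benjamini-Hochberg adjustment over 12029 genes. The pipeline was tested on simulated data. The standard error of a log2 change was taken from the F statistic. Levels are means ± SD of 3 libraries. Count ratios are summed reads over summed TMM-scaled library sizes and carry exact binomial intervals and sums of reads exact Poisson intervals, both at 95% and for counting error only. Alternatives were DESeq2 1.42.0, other scaling factors, no filter, limma 3.58.1 on log2 RPKM with a pseudocount of 0.1 or 1, a replicate block and each library left out.

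The members and the gene lists were chosen with earlier results of these data known. The rule for named genes took the members, any other Osi gene, the 8 genes nearest in profile, neighbours with at least 5 CPM or a 2-fold difference, and up to 4 genes of smallest p per list, 2 for lists of other tissues. Some genes that the rule named are not reported here. The interval between the outermost members proved long, so neighbours were named only in its end stretches, a choice made after the gene order was seen. Neighbours under 5 CPM with no 2-fold difference were named after their values were seen. NOS1, a nitric oxide synthase gene matched through an alias meant for nanos, was removed from the germ cell list.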

Additional observations from a re-analysis of the deposited data

How the results depend on the processing

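All 5 Osiris genes stayed higher in GMS under all 13 alternatives. They were picked for this difference and the alternatives use the same libraries, so nothing is read from that. On counts with 1 library left out, the log2 differences were 1.67 to 1.996 for Osi7, 7.13 to 8.33 for Osi9, 4.16 to 4.55 for Osi18, 7.40 to 7.84 for Osi19 and 6.11 to 6.58 for Osi20. On log2 RPKM with a pseudocount of 0.1 the values were 5.95 for Osi9, 6.90 for Osi19 and 5.33 for Osi20. With a pseudocount of 1 they were 1.42 for Osi7, 3.22 for Osi9, 2.63 for Osi18, 4.67 for Osi19 and 2.91 for Osi20. An added pseudocount narrows a log2 difference by construction where levels are low. WT means of these genes were 0.0451 RPKM for Osi9 to 1.598 RPKM for Osi7. Over all genes, 4357 differed, and 2999 to 7104 with a library left out, the upper end without WT replicate 3. At least 2-fold, 1238 differed, 1160 to 1585 with a library left out and 359 with a pseudocount of 1. Without scaling factors 3264 genes were called higher and 1695 lower, against 2115 and 2242, as the log2 median over the tested genes shifted from 0.05 to 0.15. Replicate numbers did not pair the samples (correlations of deviations 0.05, -0.17 and -0.17), and a replicate block gave 3151 changed genes. GMS replicate 1 was the only library that correlated best with its own number. Of 42 genes named by the rule outside the members, 30 kept their call under every alternative that gave a value and 12 did not; none turned direction where called. WT levels of Osi9 and Osi20 rest on 11 and 16 reads, which limits how well the size of their ratios is known.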
